A study of Pimephales promelas with 32 samples.

Results

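Whole larvae of Pimephales promelas, the fathead minnow of toxicity testing, were sequenced singly and compared after exposure to copper sulfate and after the control treatment. The comparison holds 22 of the 32 larvae of the series: 11 exposed for 48 h to copper sulfate at 40 µg/L and 11 controls, both sets identified by the name of their column in the count table. The other 10 larvae received the pyrethroid insecticide bifenthrin at 3.2 µg/L and are used here for the spread and for direct contrasts with copper sulfate. All 3 groups, controls included, carried 0.002% DMSO, and the larvae were kept in 100 mL of water at 25 °C, with 10 larvae to a beaker and 5 beakers to a treatment. The larvae are given as 48 h post hatch in the sample labels and as 96 h post hatch in the exposure protocol. At least some larvae of a group came from the same beaker, and the beaker of each larva was not labelled, so the p-values measure the spread between larvae and may be too small.

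Copper is a cofactor of enzymes such as cytochrome c oxidase and of copper-zinc superoxide dismutase, and in excess it is toxic to fish, in which the gill is a known site of action. Free copper can cycle between oxidation states and can displace other metals from proteins, and cells hold it with chaperones, transporters and metallothionein. RNA was measured here from the whole body, so gill, gut, liver, muscle and nerve contribute together, and a change in the number of cells of a type cannot be told apart from a change in RNA per cell.

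Libraries held 10655113 to 17993699 counts in control larvae and 11646077 to 16416225 in copper sulfate larvae, spread over lanes 6 and 7 (6 and 5 controls, 5 and 6 copper sulfate larvae). Copper sulfate larvae 2 and 5 and control larva 14, all of lane 7, lay farthest from the mean profile of their own group, with root mean square distances of 0.508, 0.460 and 0.473 on the log2 scale. Of 26150 gene models, 21174 were expressed highly enough to be tested. With edgeR's quasi-likelihood test, 1181 (5.58%) passed an adjusted p of 0.05, of which 759 (3.58%) were higher and 422 (1.99%) lower with copper sulfate. Most differences were small: the median absolute log2 fold change was 0.50 among the higher and 0.51 among the lower models, and the change exceeded 2-fold for 80 higher (0.378%) and 48 lower models (0.227%). Without the 3 distant larvae, 851 models were higher and 628 lower. Scaled by library totals alone, 582 were higher and 1116 lower. The difference from control did not pass an adjusted p of 0.05 between lanes for any model, and 525 models (2.48%) had an unadjusted p under 0.05 for it by the same test.

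The table pairs each model with a UniProt accession of a similar protein, mostly human, mouse or zebrafish, and not with a gene name. The names given here come from general knowledge of these UniProt entries, limited to those recalled with certainty, and could not be checked against a file. They state a similarity, not a proven orthologue. In all, 179 tested models received a name, of which 54 were higher and 33 lower with copper sulfate. Because naming began from the entries of the models that passed, the share that passed in the groups below is raised by that choice and cannot be read against the 5.58% of all models. Names that complete the groups were chosen after their values were seen, so a shared direction within a group is not a test of it. Symbols are written in capitals for all species.

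Most named transcripts of mitochondrial proteins were higher in copper sulfate larvae. Of 14 models, 10 rose and none fell by edgeR's test, and the median log2 fold change of the 14 was 0.37. The rise was largest for cytochrome c (CYCS, FMg015475), the small haem protein that carries electrons between respiratory complexes III and IV. Levels are counts per 1000000 of effective library size (CPM). CYCS stood at 129 to 175 CPM (median 143) in the control larvae and 229.7 to 418 CPM (median 305) in the copper sulfate larvae. Every copper sulfate larva lay above every control larva, as was so for 42 models (0.198%) in all, with a log2 fold change of 1.1 (SE 0.09, adjusted p = 5.7e-10). The E2 subunit of pyruvate dehydrogenase (DLAT, FMg016663), which passes acetyl groups to coenzyme A and so feeds the citric acid cycle, was also higher. DLAT stood at 73.6 to 115 CPM (median 90.7) in the control larvae and 113 to 202 CPM (median 174) in the copper sulfate larvae. The ranges of DLAT touched only at their edges, with a log2 fold change of 0.87 (SE 0.10, adjusted p = 4.0e-07).

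Enzymes of fuel breakdown in the mitochondrial matrix moved in the same direction. Dimethylglycine dehydrogenase (DMGDH, FMg018325), a flavoenzyme of choline breakdown, had 26.2 to 44.7 CPM (median 33.0) in the control larvae and 50.2 to 78.6 CPM (median 66.5) in the copper sulfate larvae. The groups did not overlap, with a log2 fold change of 0.94 (SE 0.13, adjusted p = 9.9e-06). Enoyl-CoA isomerase 1 (ECI1, FMg003018), an auxiliary enzyme of fatty acid oxidation for unsaturated chains, had 63.3 to 83.3 CPM (median 75.0) in the control larvae and 80.6 to 129 CPM (median 110.4) in the copper sulfate larvae. Its ranges overlapped only slightly, with a log2 fold change of 0.56 (SE 0.08, adjusted p = 1.2e-05). The complex I subunit NDUFV3 (FMg014074) had 76.7 to 146 CPM (median 101) in the control larvae and 125 to 186 CPM (median 150.0) in the copper sulfate larvae, with some overlap and a log2 fold change of 0.53 (SE 0.09, adjusted p = 2.4e-04). Smaller rises were found for PPIF, a matrix cyclophilin that takes part in opening of the permeability pore (log2 fold change 0.43, adjusted p = 0.0034), and for methylmalonyl-CoA mutase, MMUT (0.29, adjusted p = 0.0025). The mitochondrial mRNA regulator LRPPRC changed by 0.24 (adjusted p = 0.018). CHCHD5 and 1 of the 2 models of ECI2 also passed, at 0.36 each, and were lost in 14 and 6 of the 22 fits that left out a larva. Acyl-CoA dehydrogenase ACADSB (0.38, adjusted p = 0.12), pyruvate dehydrogenase kinase PDK3 (0.36, adjusted p = 0.26), the other ECI2 model and FASTKD2 did not pass.

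**Figure D1:**
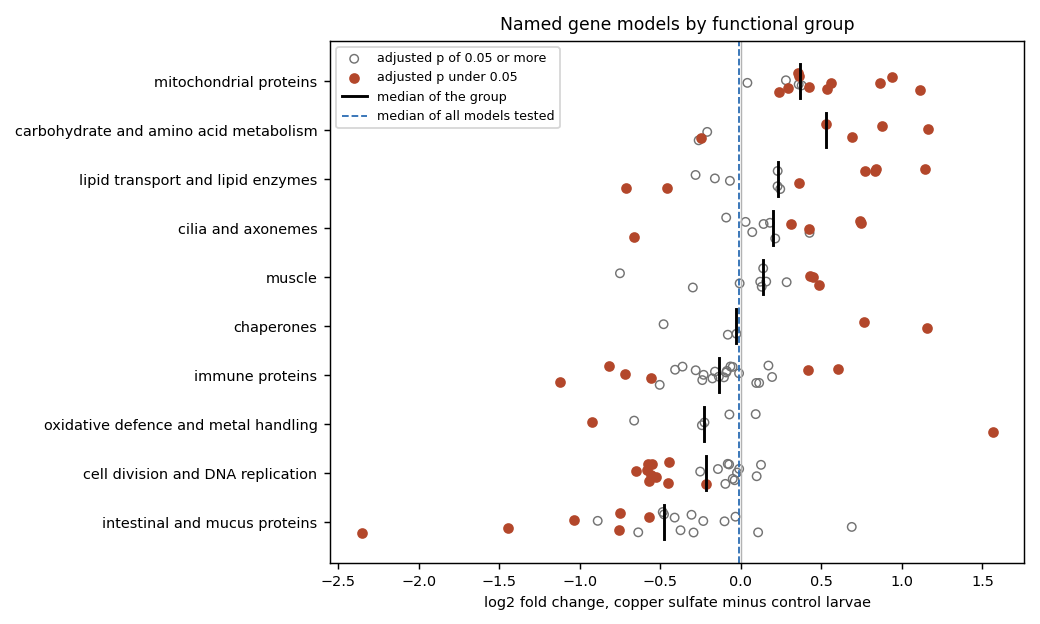
Log2 fold change (copper sulfate minus control larvae, horizontal axis) of each named gene model, by functional group; filled points passed an adjusted p of 0.05, open points did not, black bars are group medians and the dashed line is the median of all models tested. All 14 mitochondrial models lie to the right of 0, with a median of 0.37, and 17 of the 19 intestinal and mucus models lie to the left of 0, with a median of -0.48. Naming began from models that passed, so the group medians cannot be read against the dashed line. Other members were chosen after their values were seen, so a shared direction within a group is not a test of that group.

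A glucose transporter, a glycolytic enzyme and a glycogen phosphorylase were higher as well. Of 7 named models of carbohydrate and amino acid metabolism, 4 rose and 1 fell, with a median log2 fold change of 0.53. The glucose transporter GLUT1 (SLC2A1, FMg010155) had 6.88 to 12.9 CPM (median 9.63) in the control larvae and 15.5 to 21.3 CPM (median 18.5) in the copper sulfate larvae. No control larva reached the lowest copper sulfate larva, with a log2 fold change of 0.88 (SE 0.14, adjusted p = 6.3e-05). Glyceraldehyde-3-phosphate dehydrogenase (GAPDH, FMg016824), a glycolytic enzyme often taken as an invariant reference, had 394 to 699 CPM (median 582) in the control larvae and 549.6 to 1785 CPM (median 772) in the copper sulfate larvae. The upper end of the copper sulfate larvae lay far above the controls while the lower end overlapped them, with a log2 fold change of 0.69 (SE 0.15, adjusted p = 0.0039). Liver glycogen phosphorylase (PYGL, FMg020040), which releases glucose units from glycogen, changed by 0.53 (adjusted p = 0.0030), and a second PYGL model of low counts, FMg010358, had a log2 difference of -0.21 (adjusted p = 0.84). FTCD (FMg013579), which breaks down histidine and hands its carbon to folate, had 8.84 to 22.1 CPM (median 13.4) in the control larvae and 14.5 to 51.9 CPM (median 26.7) in the copper sulfate larvae. The groups overlapped in part, with a log2 fold change of 1.161 (SE 0.27, adjusted p = 0.0059). The purine synthesis enzyme ADSS2 was lower (-0.25, adjusted p = 0.037), a call lost in 14 of the 22 fits that left out a larva.

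Models of apolipoproteins B and A-I and of a cholesterol ester enzyme were higher, and 2 other lipid genes were lower. Of 13 named models of lipid transport and lipid enzymes, 5 rose and 2 fell, with a median log2 fold change of 0.23. Apolipoprotein B (APOB, FMg000490), the backbone protein of lipoproteins that carry fat from gut, liver and yolk, had 259 to 613 CPM (median 411) in the control larvae and 339 to 961 CPM (median 749) in the copper sulfate larvae. Most copper sulfate larvae lay above the controls, with a log2 fold change of 0.84 (SE 0.14, adjusted p = 1.8e-04). Apolipoprotein A-I, the main protein of high-density lipoprotein, was matched by 2 models that may share reads. The more abundant of them, FMg006849, had 1033 to 5692 CPM (median 1687) in the control larvae and 2339 to 6148 CPM (median 3743) in the copper sulfate larvae, and a few controls reached the copper sulfate range. It gave a log2 fold change of 0.83 (SE 0.22, adjusted p = 0.021), and the other, FMg006850, gave a log2 fold change of 0.77 (SE 0.21, adjusted p = 0.021). Sterol O-acyltransferase 2 (SOAT2, FMg022492), which makes the cholesteryl esters packed into lipoproteins in gut and liver, had 4.24 to 15.6 CPM (median 9.42) in the control larvae and 14.3 to 32.6 CPM (median 20.3) in the copper sulfate larvae. The ranges overlapped narrowly, with a log2 fold change of 1.143 (SE 0.19, adjusted p = 1.2e-04).

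Other members of the same system did not pass. The 2 models of apolipoprotein Eb had log2 differences of 0.23 and 0.24 (adjusted p = 0.16 and 0.15), and MTTP, which loads lipid onto APOB, one of -0.16 (adjusted p = 0.51). LCAT, which makes cholesteryl esters in plasma, had a log2 difference of 0.23 (adjusted p = 0.49). As markers of liver, the apolipoprotein models are 4 of 4 above 0 and 2 of 4 passed, so the part of liver RNA amount in the rise of the liver genes was not tested. Acid sphingomyelinase SMPD1, a lysosomal enzyme, rose by 0.36 (adjusted p = 0.025). Lysosomal phospholipase A2 (PLA2G15, FMg017678) went the other way, with 112 to 201 CPM (median 134) in the control larvae and 84.4 to 149 CPM (median 96.6) in the copper sulfate larvae and a log2 fold change of -0.46 (SE 0.10, adjusted p = 0.0050). TMEM97 (FMg010648), a sterol-regulated membrane protein known as the sigma-2 receptor, had 17.6 to 52.7 CPM (median 33.1) in the control larvae and 13.0 to 30.6 CPM (median 18.3) in the copper sulfate larvae. It was lower with overlapping groups, with a log2 fold change of -0.71 (SE 0.17, adjusted p = 0.0076).

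**Figure D2:**
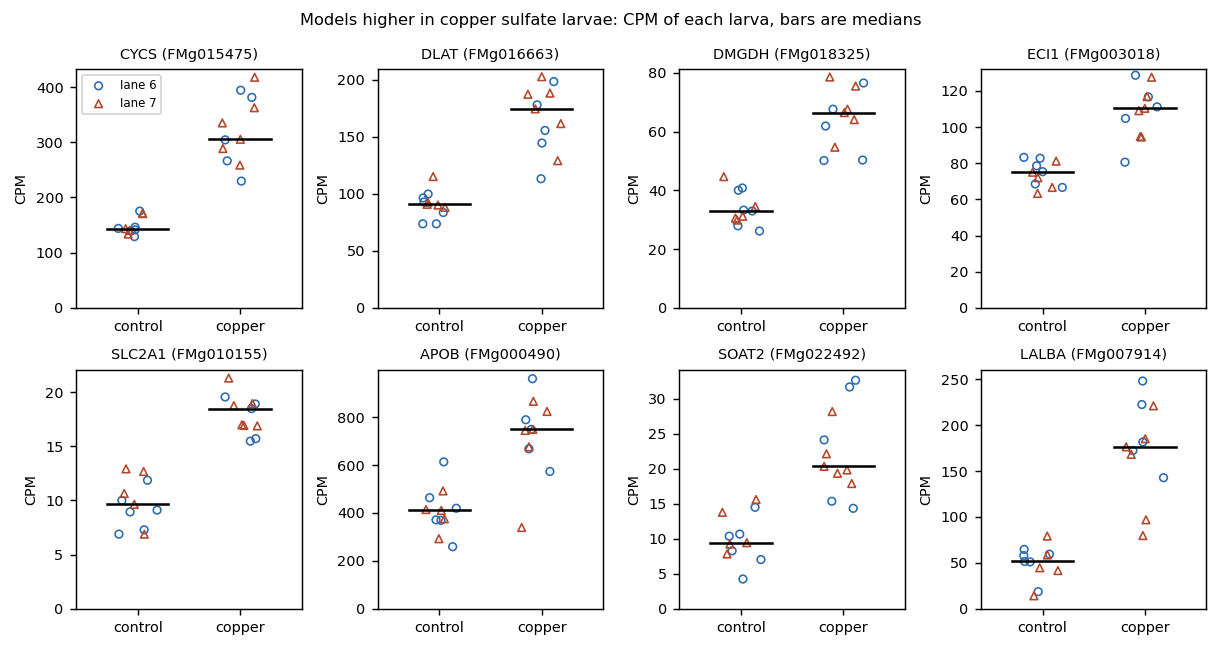
CPM (vertical axes, from 0) of 8 models that were higher in copper sulfate larvae, with 1 point per larva, circles for lane 6, triangles for lane 7 and bars for medians. The groups do not overlap for CYCS, DMGDH, SLC2A1 and LALBA, and overlap for DLAT, ECI1, APOB and SOAT2.

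The largest rise among named models of at least 50 mean counts belonged to FMg007914, whose entry is human alpha-lactalbumin (LALBA), a member of the C-type lysozyme family of secreted proteins. It had 14.104 to 79.2 CPM (median 51.6) in the control larvae and 79.7 to 248 CPM (median 176) in the copper sulfate larvae, and the groups did not overlap, if narrowly. The difference was 1.81 on the log2 scale (SE 0.21, adjusted p = 7.7e-07). A second model with that entry, FMg007915, had a log2 difference of 0.11 (SE 0.11, adjusted p = 0.66). Next came FMg021987, 1 of 14 tested models annotated as ribonuclease H, an activity that retroelements carry, with 11.8 to 77.0 CPM (median 38.0) in the control larvae and 60.4 to 269.6 CPM (median 125) in the copper sulfate larvae and a log2 fold change of 1.605 (SE 0.28, adjusted p = 2.2e-04). The other 13 models of that class did not pass. SLC39A5 (FMg005306), known in mammals as the zinc importer ZIP5 of gut and pancreas, had 0.351 to 4.55 CPM (median 2.21) in the control larvae and 2.42 to 13.07 CPM (median 6.16) in the copper sulfate larvae and a log2 fold change of 1.56 (SE 0.37, adjusted p = 0.0084). It belongs to 7 named models of oxidative defence and metal handling, of which 1 rose and 1 fell, with a median log2 fold change of -0.23. The model that fell was FRRS1 FMg001469 (-0.93, adjusted p = 0.019), a call lost in 1 of the 22 fits that left out a larva. The other FRRS1 models did not pass. The coiled-coil protein CCDC141 (FMg014000) and the zinc finger protein ZNF395 (FMg000636) were higher by 0.70 and 0.50 (adjusted p = 1.3e-04 and 5.0e-04), and a second ZNF395 model, FMg003973, had a log2 difference of -0.11 (adjusted p = 0.68).

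A pair of cytosolic chaperone models rose. They were 2 of 5 named chaperone models, whose median log2 fold change was -0.03, and none fell. The cytosolic chaperone HSP90 alpha (HSP90AA1, FMg015814) had 39.0 to 103 CPM (median 64.8) in the control larvae and 53.7 to 201 CPM (median 105) in the copper sulfate larvae, with a log2 fold change of 0.76 (SE 0.17, adjusted p = 0.0037). DNAJA4 (FMg017635), a co-chaperone of the Hsp40 family, had 10.9 to 35.6 CPM (median 22.2) in the control larvae and 14.9 to 109.8 CPM (median 48.6) in the copper sulfate larvae, with a log2 fold change of 1.155 (SE 0.24, adjusted p = 0.0020). Both spread widely among copper sulfate larvae, some of which lay within the control range. In lane 7 the copper sulfate larvae had 86.4 to 201 CPM of HSP90AA1 (n = 6), and in lane 6 they had 53.7 to 105 CPM (n = 5). The log2 fold changes were 0.41 in lane 6 and 1.06 in lane 7 for HSP90AA1, and 0.72 and 1.55 for DNAJA4. Neither lane difference passed after adjustment (unadjusted p = 0.042 and 0.077). HSP90AB1, the constitutive beta form, had a log2 difference of -0.08 (SE 0.07, adjusted p = 0.62). The small heat shock protein HSPB1 had a log2 difference of -0.48 (SE 0.29, adjusted p = 0.41). Copper-zinc superoxide dismutase SOD1 had a log2 difference of -0.23 (SE 0.10, adjusted p = 0.20). Lists of metallothionein, glutathione enzymes, other copper enzymes and ion pumps matched no tested model by their entries and are not analysed here. Among others, the planned lists for the citric acid cycle, fatty acid synthesis and oxidation, sterol synthesis, DNA replication and muscle markers also matched none. The functional groups described here were formed from the recalled names instead.

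Of 21 named models of cell division and DNA replication, 10 fell, none rose and 11 did not pass, with a median log2 fold change of -0.22. Deoxyuridine triphosphatase (DUT, FMg014204), which keeps uracil out of new DNA, had 15.8 to 32.3 CPM (median 22.8) in the control larvae and 9.18 to 21.14 CPM (median 14.8) in the copper sulfate larvae. The groups overlapped, with a log2 fold change of -0.58 (SE 0.13, adjusted p = 0.0036). The histone variant H2A.Z (H2AZ1, FMg010151) had 36.4 to 65.5 CPM (median 58.5) in the control larvae and 26.2 to 54.2 CPM (median 37.6) in the copper sulfate larvae, with a log2 fold change of -0.55 (SE 0.12, adjusted p = 0.0047). Ki-67 (MKI67, FMg006409), a protein of mitotic chromosomes used to mark cycling cells, had 109 to 174 CPM (median 151) in the control larvae and 72.3 to 154 CPM (median 104) in the copper sulfate larvae. Most copper sulfate larvae lay below most controls, with a log2 fold change of -0.53 (SE 0.13, adjusted p = 0.0090). The kinetochore scaffold KNL1 (FMg005471) had 10.15 to 19.095 CPM (median 15.03) in the control larvae and 6.07 to 15.6 CPM (median 9.83) in the copper sulfate larvae, with a log2 fold change of -0.65 (SE 0.16, adjusted p = 0.0084). Centromere protein CENPF (FMg000043) had a log2 fold change of -0.56 (SE 0.14, adjusted p = 0.016), and the spindle kinesins KIFC1 and KIF15 changed by -0.58 and -0.57 (adjusted p = 0.018 and 0.022).

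PCNA, the clamp that holds DNA polymerases on their template, passed by the narrowest margin (-0.45, SE 0.14, adjusted p = 0.0498), and its call was lost in 17 of the 22 fits that left out a larva. ATAD2 (-0.44, adjusted p = 0.043) was lost in 14 of them. The checkpoint mediator MDC1 fell by the least (-0.22, adjusted p = 0.017). Second models of MKI67 (FMg006410) and CENPF (FMg004572) had log2 differences of -0.02 and -0.10 (adjusted p = 0.97 and 0.62). The kinases ATM and ATR had log2 differences of -0.04 and -0.05 (adjusted p = 0.91 and 0.86). The maintenance methyltransferase DNMT1 had a log2 difference of -0.25 (SE 0.10, adjusted p = 0.14). Of the 21 models, 2 lay above 0, the highest at 0.13, and neither passed. All 10 that fell had the same sign in both lanes and a larger fall in lane 6, where 3 of them passed alone, than in lane 7, where none did. No lane difference among them passed after adjustment.

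Of 19 named models of intestinal and mucus proteins, 6 fell, none rose and 13 did not pass, with a median log2 fold change of -0.48. A model of FCGBP (FMg010792), a mucin-like protein that is crosslinked into gut mucus in mammals, had 2.92 to 10.8 CPM (median 4.63) in the control larvae and 1.123 to 2.56 CPM (median 2.16) in the copper sulfate larvae. Every copper sulfate larva lay below every control larva, as for 4 models (0.0189%) in all, with a log2 fold change of -1.45 (SE 0.20, adjusted p = 1.0e-05). MUC5AC, a gel-forming mucin secreted by goblet cells, was matched by 5 models that may share reads. FMg023278 had 4.26 to 11.39 CPM (median 9.43) in the control larvae and 1.414 to 8.53 CPM (median 4.17) in the copper sulfate larvae, with overlapping groups and a log2 fold change of -1.04 (SE 0.24, adjusted p = 0.0066). FMg023270 also fell (-0.76, adjusted p = 0.018), and the most abundant of the 5, FMg023268, had a log2 difference of -0.31 (SE 0.21, adjusted p = 0.48). The other MUC5AC models, FMg023277 and FMg023280, did not pass. Of the 19 models, 2 lay above 0. MUC5AC FMg023277, of low counts, was the highest at 0.69, and DMBT1 FMg009723 had a log2 difference of 0.11 (adjusted p = 0.87). The other DMBT1 models, FMg003161, FMg009647, FMg009720 and FMg009721, had log2 differences of -0.03, -0.41, -0.37 and -0.29 and did not pass.

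Of the brush-border models, the cadherin gave the firmest call. The cadherin CDHR2 (FMg001976), which links the tips of microvilli, had 77.7 to 156 CPM (median 109) in the control larvae and 35.6 to 118 CPM (median 77.3) in the copper sulfate larvae, with a log2 fold change of -0.57 (SE 0.14, adjusted p = 0.011). A second FCGBP model, FMg008548, had a log2 fold change of -0.75 (SE 0.22, adjusted p = 0.040), and this call was lost in 13 of the 22 fits that left out a larva. A further FCGBP model, FMg018203, did not pass. A lactase model, LCT FMg025201, had 0.641 to 67.3 CPM (median 3.34) in the control larvae and 0.875 to 10.3 CPM (median 1.97) in the copper sulfate larvae. Its difference of -2.35 on the log2 scale (SE 0.70, adjusted p = 0.041) came with a wide spread among the controls, and the call was lost in 12 of 22 such fits. Another LCT model, FMg013973, had 20.5 to 106 CPM in the control larvae and 7.37 to 86.2 CPM in the copper sulfate larvae and did not pass. Sucrase-isomaltase SI (-0.89, SE 0.36, adjusted p = 0.16), the mucin MUC5B (-0.64, SE 0.21, adjusted p = 0.072) and the receptor CUBN (-0.10, adjusted p = 0.86) did not pass. Of 17 tested models of an aspartic endopeptidase class that includes pepsin, FMg010121 was lower (-1.92, adjusted p = 0.042) and FMg020595 higher (0.57, adjusted p = 0.042). Both calls were lost in 14 and 16 of the fits that left out a larva, and FMg010121 changed by -0.74 in lane 6 and -3.11 in lane 7. Whether the models of this class are digestive enzymes was not tested.

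**Figure D3:**
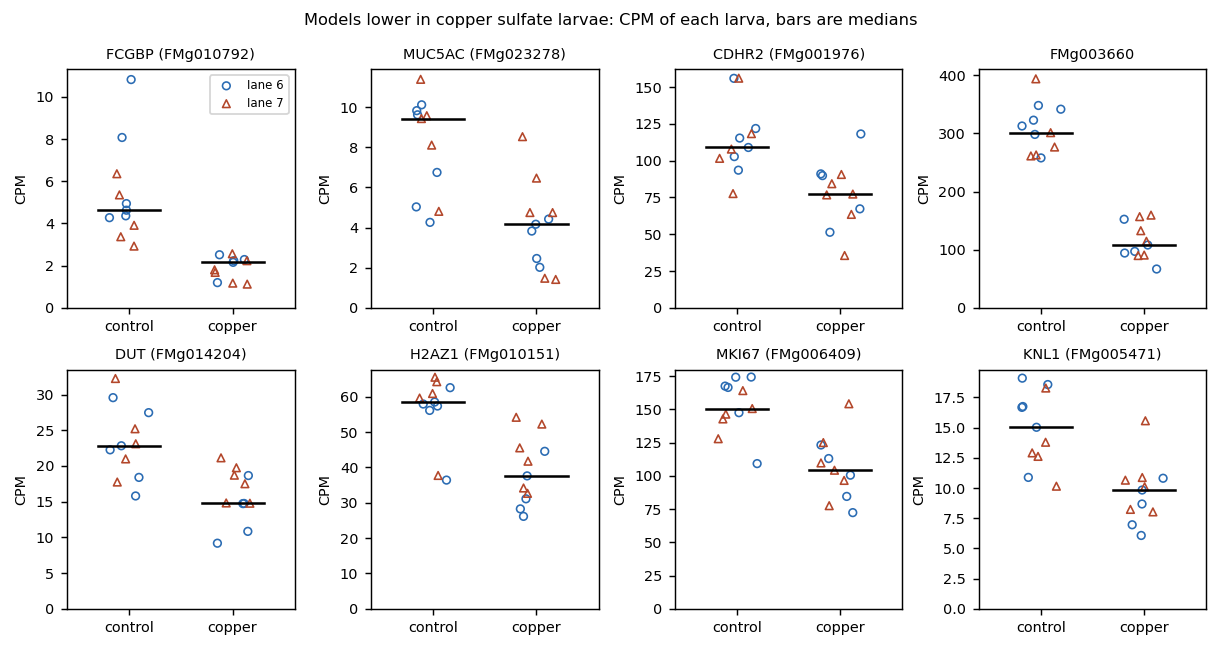
CPM (vertical axes, from 0) of 8 models that were lower in copper sulfate larvae, with 1 point per larva, circles for lane 6, triangles for lane 7 and bars for medians. FCGBP FMg010792 and FMg003660 do not overlap between groups, whereas MUC5AC, CDHR2, DUT, H2AZ1, MKI67 and KNL1 do.

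Of 11 named muscle models, 3 rose and none fell, with a median log2 fold change of 0.14: the M-band protein MYOM1 (0.45, adjusted p = 0.0013), the coactivator MYOCD (0.49, adjusted p = 0.0077) and the sarcomeric formin FHOD3 (0.43, adjusted p = 0.0096). The MYOCD model that rose was FMg012672, and the less abundant MYOCD models FMg019173 and FMg025973 did not pass. None of the models of TTN, SPEG, SYNPO2 and MYH7 passed. Of the 11, 8 were above 0, and the lowest difference, -0.75, lay farther from 0 than any rise but did not pass. A model of the calcium release channel RYR2 (FMg014051) did not pass (-0.30, adjusted p = 0.13), but passed as lower without control larva 14 or copper sulfate larva 5, and without the 3 distant larvae. Of 12 named cilia models, 4 rose and 1 fell with a median of 0.20, and the 4 became 1 without control larva 5 or copper sulfate larva 10 or 14. They became 2 without control larva 3, 4, 7 or 11 or copper sulfate larva 1, 2, 4, 7, 8 or 13. Of 25 named immune models, 2 rose and 4 fell, with a median of -0.14. CD48 (FMg017849) rose by 0.61 (adjusted p = 0.024), a call kept in all 22 fits that left out a larva. SAMSN1 FMg022676 rose by 0.42 (adjusted p = 0.043), a call lost in 14 of them, and SAMSN1 FMg001874 did not pass. The 2 that rose became 1 without control larva 1, 2, 4, 5, 7, 11 or 14 or copper sulfate larva 1, 4, 6, 7, 8, 10 or 14. The interleukin 2 receptor chain IL2RB (FMg018531), found on lymphocytes in mammals, had 1.67 to 12.6 CPM (median 7.94) in the control larvae and 1.05 to 6.12 CPM (median 4.28) in the copper sulfate larvae and a log2 fold change of -0.82 (SE 0.23, adjusted p = 0.031), a call lost in 7 of the 22 fits that left out a larva. The toll-like receptor regulator MFHAS1 (FMg019467) had a log2 fold change of -0.56 (SE 0.14, adjusted p = 0.014). A second and more abundant MFHAS1 model, FMg015023, had a log2 difference of -0.06 (adjusted p = 0.67). The 4 immune falls became 1 without control larva 11 and 2 without control larva 7 or copper sulfate larva 4. TMPRSS6 (FMg020101), a membrane protease that controls hepcidin and iron balance in mammals, had a log2 fold change of -0.54 (SE 0.13, adjusted p = 0.0099). The alpha A crystallin models of the lens, 2 of 2, did not pass, with log2 fold changes of 0.30 and 0.34.

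The models of smallest p in each direction that carry no certain name separated the groups fully. FMg020641 had 232 to 332 CPM (median 257) in the control larvae and 382 to 633 CPM (median 493) in the copper sulfate larvae, with a log2 fold change of 0.90 (SE 0.08, adjusted p = 6.7e-09). FMg000989 gave a log2 fold change of 0.96 (SE 0.09, adjusted p = 3.0e-08). FMg003660 had 258 to 394 CPM (median 301) in the control larvae and 66.7 to 159 CPM (median 108) in the copper sulfate larvae, with a log2 fold change of -1.43 (SE 0.12, adjusted p = 8.3e-10), and FMg004685 gave a log2 fold change of -1.45 (SE 0.12, adjusted p = 8.3e-10).

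The bifenthrin larvae shared the controls of this comparison, so each chemical's own values are set side by side, and the chemicals were compared by their direct contrast, in which 3621 of 21174 models were higher and 3147 (14.9%) lower with copper sulfate than with bifenthrin. Of the 54 named models that rose with copper sulfate, 34 also passed as higher and 4 as lower with bifenthrin against control. In the direct contrast, 15 of the 54 were higher and 9 lower than with bifenthrin. Of all 759 models that rose with copper sulfate, named or not, 295 were higher in that contrast. Of the 33 that fell, 20 also passed as lower and 1 as higher with bifenthrin against control. In the direct contrast, 14 of the 33 were higher and 9 lower than with bifenthrin. Of all 422 models that fell with copper sulfate, named or not, 109 were lower in that contrast. Over all models tested, 8096 (38.2%) passed with bifenthrin in either direction, and the shared controls favour agreement. How many of all models that rose or fell passed in the same direction with bifenthrin against control was not counted. All 10 cell division models that fell with copper sulfate were lower still with bifenthrin, and each of the 10 differed between chemicals. Not every named cell division model was lower with bifenthrin. INCENP FMg007592, which did not pass with copper sulfate, had 132 to 182.5 CPM in the control larvae and 190 to 261 CPM in the bifenthrin larvae. DUT was at 4.51 to 8.86 CPM (median 7.02) in the bifenthrin larvae, and its log2 difference of copper sulfate minus bifenthrin was 1.19 (adjusted p = 2.9e-08). PCNA stood at 1.62 in the same contrast (adjusted p = 4.3e-10), and MKI67 at 1.182 (adjusted p = 2.3e-08).

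For 5 of the 87 named models that passed with copper sulfate, the chemicals went in opposite directions from control, each past the threshold in both. How many of all models tested did so was not counted. Nor was it counted how many separated every copper sulfate larva from every bifenthrin larva. Because the 5 were picked for opposite directions, a difference in the direct contrast largely follows from that choice. HSP90AA1, DNAJA4, SLC39A5 and the phosphatase DUSP13 were higher with copper sulfate and lower with bifenthrin, for which 8096 models (38.2%) passed against control, and FCGBP FMg010792 was lower with copper sulfate and higher with bifenthrin. DNAJA4 was at 4.199 to 14.9 CPM (median 11.0) with bifenthrin, below every larva given copper sulfate, if barely (difference 2.33, adjusted p = 1.7e-08). HSP90AA1 was at 29.1 to 47.5 CPM (median 41.6), below every copper sulfate larva (difference 1.59, adjusted p = 1.5e-08). SLC39A5 was at 0.0653 to 2.65 CPM (median 0.524), with a difference of 3.05 (adjusted p = 1.7e-06). DUSP13 had 1.93 to 4.62 CPM (median 2.64) in the control larvae and 3.20 to 9.15 CPM (median 5.46) in the copper sulfate larvae and 0.759 to 2.84 CPM (median 1.81) with bifenthrin (difference 1.74, adjusted p = 1.1e-07). FCGBP FMg010792 was at 4.71 to 13.84 CPM (median 9.72) with bifenthrin, above every copper sulfate larva (difference -2.26, adjusted p = 2.7e-10).

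All 5 carbohydrate and amino acid models that passed with copper sulfate also passed in the same direction with bifenthrin against control. Of the 10 mitochondrial models that rose with copper sulfate, 6 also passed as higher with bifenthrin, and 4 differed between the chemicals. CYCS stood at 212 to 307 CPM in the bifenthrin larvae. CYCS was 0.32 higher with copper sulfate than with bifenthrin on the log2 scale (adjusted p = 0.0055), and ECI1 and NDUFV3 were higher by 0.35 and 0.42 (adjusted p = 8.6e-04 and 8.2e-04). DLAT and DMGDH did not pass the contrast, at 0.10 and 0.28 (adjusted p = 0.49 and 0.11). LALBA FMg007914 was 1.269 higher with copper sulfate (adjusted p = 2.4e-05), whereas FTCD was -1.30 on the same scale, that is higher with bifenthrin (adjusted p = 2.6e-04).

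**Figure D4:**
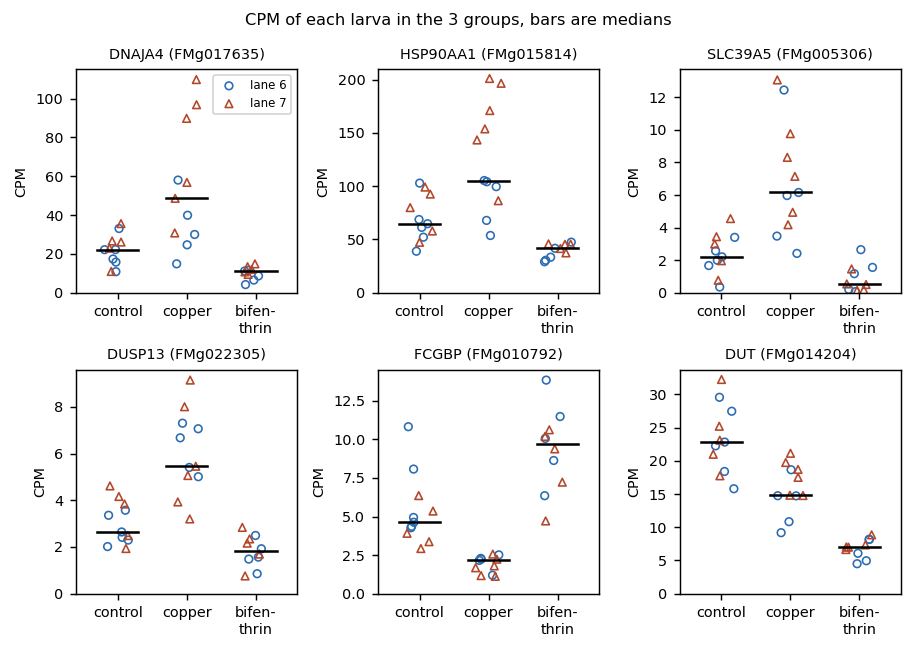
CPM (vertical axes, from 0) of 6 models in control, copper sulfate and bifenthrin larvae, with 1 point per larva, circles for lane 6, triangles for lane 7 and bars for medians. DNAJA4, HSP90AA1, SLC39A5 and DUSP13 are highest with copper sulfate and lowest with bifenthrin, FCGBP FMg010792 shows the opposite order, and DUT falls from control to copper sulfate to bifenthrin.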

How the data were processed

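Libraries were made from 250 ng of RNA per larva with a Lexogen SENSE mRNA-Seq kit, per the labels' protocols. The authors deposited 1 table of raw counts per gene model, with 32 columns of larvae and a column of UniProt accessions. STAR, limma and bcl2fastq 2.19.1 are listed in the submitters' processing notes, with no roles. Genome build, annotation, counting tool and strand setting: not given in the sources used here. Reads shared between similar models may be split, so models with the same entry are uncertain.

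From the counts, models were filtered with edgeR's filterByExpr (4976 left out; those kept hold 99.92% of counts), scaled by TMM, and tested by edgeR's quasi-likelihood F test with group and lane as terms over all 32 larvae, with Benjamini-Hochberg adjustment over 21174 models and a threshold of 0.05. SE is the log2 fold change divided by the square root of F. CPM uses the TMM library sizes. Versions were edgeR 4.0.16, limma 3.58.1, DESeq2 1.42.0 and R 4.3.3. No pair of larvae in a group agreed within counting noise (lowest chi-square per degree of freedom 11.0 in controls and 12.0 with copper sulfate).

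Members and lists were chosen with earlier results of these data known. Names were given to 134 accessions from general knowledge of the UniProt entries. Naming began from an alphabetical list of the entries of models that passed, which did not show direction, size or p, and went on to other tested entries. The share of a named list that passed and its median fold change therefore cannot be read against those of all models. The names were not checked against any file here, since the RefSeq gene table (fPimPro1.hap1.1) matched none of the identifiers. A further 9 accessions were dropped as uncertain after values had been seen; they cover 1 higher and 2 lower models. Named were the 12 models of smallest p and the 6 of largest change in each direction among certain entries with a mean count of at least 50, all called members of the fixed lists, and 2 models per direction by identifier only. Other names complete the groups and were chosen after their values were seen. Alternatives were DESeq2, limma-voom (also with quality weights or presumed beakers), other scaling, filters and lane handling, a replicate block, and leaving out larvae. The presumed beakers were guessed from runs of consecutive replicate numbers within a group. No label gives the true beakers, so that fit cannot show what shared beakers do to the calls.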

Additional observations from a re-analysis of the deposited data

How the results depend on the processing

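The 94 models followed here passed and were given a name or chosen by identifier, and not all of them are printed above. None changed direction under any of the 14 alternatives or when 1 of 22 larvae was left out. DESeq2 and edgeR with RLE size factors each lost 1 of these calls, sample quality weights 4, limma-voom 9, no low-count filter 10, presumed beakers 11, no lane term 13, library totals 20 and the 22 larvae alone 22. A mean count of at least 50 lost none of the 79 it tested, and leaving out copper sulfate larvae 2 and 5 and control larva 14, chosen after seeing the data, lost 8. Within lanes, where fewer larvae enter, 62 calls were lost in lane 6 and 78 in lane 7. Lane 6 gave 303 models higher and 79 lower, with 21 lower by more than 2-fold. Lane 7 gave 77 higher and 10 lower, with 24 and 6 past 2-fold. Library totals gave 1116 lower, 83 of them by more than 2-fold, and moved the median log2 fold change of all models to -0.079. Quality weights gave 662 lower. Leaving out each larva in turn gave 638 to 870 models higher and 259 to 506 lower, with 69 to 98 higher and 32 to 71 lower by more than 2-fold. The lower count moved by more than 1.5 times without copper sulfate larva 4 (259) and without control larva 7 (275). The cause of these shifts was not tested. Replicate numbers are shared by both groups, and larvae of the same number lie in the same lane, but the numbers are not stated to pair larvae. Of 10 same-numbered pairs, 1 had a correlation of deviations over 0.1 (range -0.327 to 0.107) and no control larva correlated best with its own number. A replicate block on these numbers gave 386 higher and 105 lower, 20 of them by more than 2-fold. That fit left out the bifenthrin larvae, control larva 3 and copper sulfate larva 6. Without the block, the 22 larvae alone gave 642 higher and 347 lower. Fewer larvae and the block enter together, and the part of each was not tested. The block fit lost 59 of the 94 calls. Its counts, against those of the fit to all 32 larvae, were 3 against 10 for lower cell division models and 1 against 6 for lower intestinal and mucus models. They were 7 against 10 for higher mitochondrial models, 2 against 5 for higher lipid models and 0 against 2 for higher chaperone models. Depth limits the low models: of the 94, only 79 reached a mean count of 50 over all 32 larvae. Those under it include EFCAB6, CFAP65, TTC12, SLC39A5, FMg010121, FRRS1 FMg001469 and MUC5AC FMg023270. The part of low depth in their values was not tested.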

Other observations

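A few models outside these groups also differed between copper sulfate and control larvae; they were chosen after their values were seen. EFCAB6, an EF-hand calcium-binding protein, had a log2 fold change of 1.57 (SE 0.20, adjusted p = 3.1e-06 by edgeR's test) at a mean of 28.6 counts. The phosphatase DUSP13 was higher by 0.99 (adjusted p = 0.0014). The synaptic vesicle protein TBC1D24 and the seven-pass cadherin CELSR2 changed by -1.09 and -1.06 (adjusted p = 0.0035 and 0.0036), at mean counts of 42.3 and 29.5. Among transcription regulators, PBX3 (0.48), CAMTA2 (0.30) and 1 of 2 models of CAMTA1 (0.17, FMg005384) were higher, with adjusted p of 0.010, 0.011 and 0.042. The CAMTA1 call was lost in 13 of the 22 fits that left out a larva.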
